A study of Mus musculus with 6 samples.

Results

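Genes of transforming growth factor beta (TGF-beta) signalling and of the extracellular matrix were examined in polyadenylated RNA of AML12, a cultured mouse hepatocyte line. The 38 genes were taken by symbol from a list of TGF-beta ligands, receptors, SMADs and repressors, collagens, laminins, other matrix proteins, crosslinking enzymes, and matrix proteases with their inhibitors. Of these, 36 were found among the 23886 Ensembl gene identifiers of the files, and Col5a2 and Lox were not analysed here. Of the 6 libraries, 3 came from AML12 cells given no treatment (Control 2, 3 and 4) and 3 from AML12 cells kept in a static magnetic field, which does not change over time (SMF 1, 2 and 3). All libraries are of AML12 cells described as wild type, so both groups share whatever sets this line apart from liver tissue, including the human TGF-alpha transgene of the mouse it was derived from. TGF-alpha is a ligand of the epidermal growth factor receptor and is not a member of the TGF-beta family. The sources used here do not give the field strength or exposure time. Nothing in the labels says that libraries came from separate cultures, so p-values measure only the spread between these samples, which may be technical.

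TGF-beta is secreted in a latent form and, once released, binds the receptor TGFBR2, which recruits and activates TGFBR1. TGFBR1 phosphorylates SMAD2 and SMAD3, which enter the nucleus with SMAD4 and act on target genes, while SMAD7 blocks the receptor and SKIL and TGIF1 repress transcription. In liver the pathway is known for restraining hepatocyte growth and for driving matrix production by activated stellate cells, which make the fibrillar collagens of scar tissue. Basement membranes, the thin sheets under epithelia, are built from type IV collagen and laminin, a trimer of an alpha, a beta and a gamma chain.

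Library totals behind the values ran from 15514530 to 18200517 reads, and the groups overlapped in depth. Levels are in FPKM, fragments per kilobase of exon scaled to library size, so levels of different genes can be set side by side. A gene was called expressed, and was tested, with at least 1 FPKM in at least 3 of the 6 libraries. Of 9 hepatocyte markers, 7 passed this filter, with Krt8 at 1921 ± 50.6, Hnf4a at 91.6 ± 4.32 and Alb at 29.2 ± 4.33 FPKM in controls (SD, n = 3). Cebpa was near the filter at 0.926 ± 0.209, and Apoa1 and Serpina1a were below it at 0.235 ± 0.0848 and 0.219 ± 0.0724. Of 4 bile duct markers, Krt19 was at 1063 ± 10.7, Krt7 at 61.9 ± 2.66 and Sox9 at 8.99 ± 0.123, while Epcam was at 0.0089 ± 0.0154. The 8 stellate cell and fibroblast markers summed to 1.52 to 1.97 FPKM in controls and 1.49 to 1.89 in SMF libraries. Of these, Dcn and Reln were at 0 in every library, and most of the sum was Col1a1, which is also one of the 38 genes. The 4 endothelial markers together reached at most 0.169 FPKM, with Tek at 0 in every control. Of 4 macrophage and leukocyte markers, Ptprc, the general one, was at 0.0097 ± 0.0085 FPKM in controls, but Csf1r was at 1.19 ± 0.240, Cd68 at 2.58 ± 0.514 and Cd14 at 183 ± 9.58. The summed level of these 4 was 177 to 196 FPKM in controls and 201 to 218 in SMF libraries, nearly all of it Cd14, which was higher in every SMF library (205 ± 8.27; adjusted p = 0.174 by limma and 0.0314 by limma-voom). The part of other cell types in the results below was not tested.

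AML12 cells expressed 28 of the 36 genes. Spp1, Timp2, Col18a1 and Sparc were each above 100 FPKM. Of the fibrillar collagen genes among the 36, Col1a1 was near 1 FPKM and Col1a2, Col3a1 and Col5a1 were under 0.1. Of fibrillar collagen genes on a list of other collagens, Col27a1 was higher, at 6.53 ± 0.475 FPKM in controls. Col11a2 was at 1.13 ± 0.24 in controls, and Col2a1 and Col5a3 were under 0.1. A further 17 genes lay between 10 and 100 FPKM and 7 between 1 and 10. Below the filter were Tgfb2, between 0.1 and 1, and 7 genes under 0.1 FPKM (Col5a1, Lama3, Mmp2, Tgfbi, Timp3, Col3a1 and Col1a2).

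**Figure D1:**
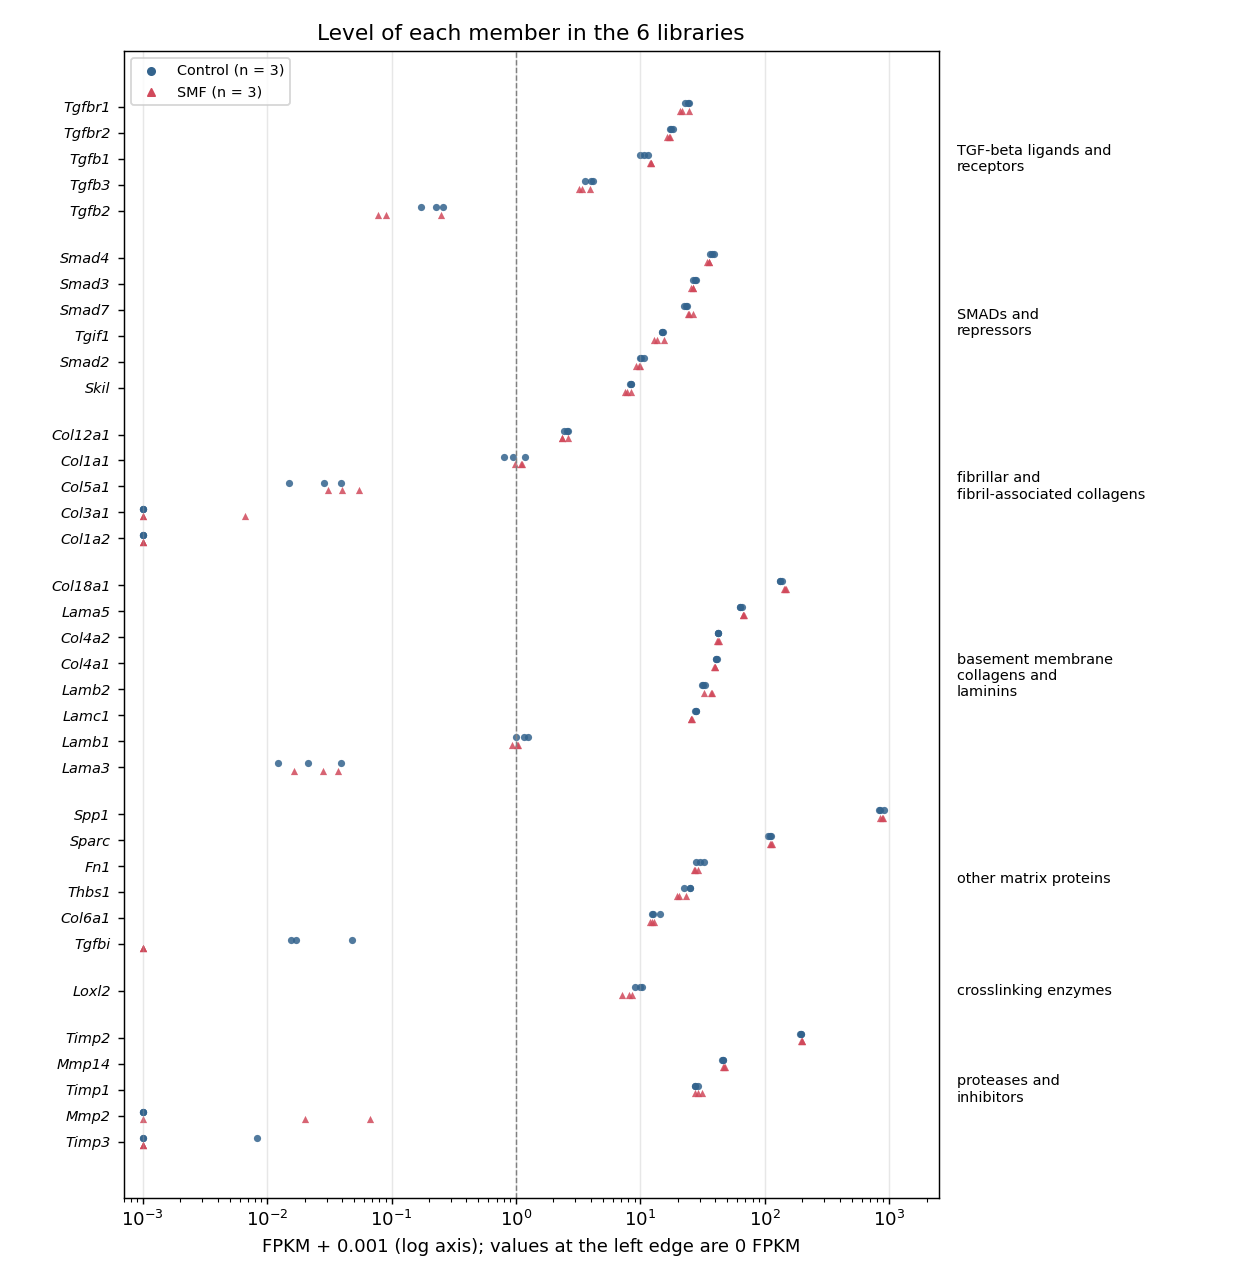
FPKM of the 36 genes in each of the 6 libraries, on a log axis after adding 0.001, grouped by role, with circles for control and triangles for SMF libraries. The dashed line marks 1 FPKM; Spp1 is the highest at 826 to 917 FPKM, and Col1a2 is at 0 in all 6 libraries.

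Of the ligands, Tgfb1 (ENSMUSG00000002603) was the most abundant, at 11.5, 10.77 and 10.01 FPKM in Control 2, 3 and 4, against 12.14, 12.18 and 12 in SMF 1, 2 and 3. Its paralogue Tgfb3 lay between 3.22 and 4.16 FPKM, so that Tgfb1 exceeded it 2.59- to 3.77-fold within libraries. Tgfb2, the remaining ligand, was between 0.0769 and 0.26 FPKM and rested on 8 to 25 reads per library. Both receptor chains that bind these ligands were expressed, Tgfbr1 at 20.8 to 24.7 FPKM and Tgfbr2 at 16.5 to 18.3.

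All 6 intracellular members were expressed. Smad4, the common partner, was the highest at 34.4 to 39.1 FPKM, followed by Smad3 at 25.4 to 27.8 and the inhibitory Smad7 at 22.5 to 26.5. The ranges of Smad3 and Smad7 overlapped. Smad2 stood at 9.25 to 10.7 FPKM, and Smad3 exceeded it 2.56- to 2.88-fold within libraries. The repressors Tgif1 and Skil were at 12.8 to 15.4 and 7.51 to 8.41 FPKM.

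Among the collagens, Col18a1, Col4a1 and Col4a2 of basement membranes were the highest. Col18a1, whose product carries endostatin at its end, was at 133 to 148 FPKM, or 3.17 to 3.48 times the level of Col4a2. Col4a1 and Col4a2, the chains of the common type IV collagen trimer, stood at 39.3 to 41.2 and 41.7 to 42.7 FPKM. Other chains of type IV collagen, from the list of other collagens, were lower in controls. Col4a5 was at 4.93 ± 0.142, Col4a6 at 1.66 ± 0.161, Col4a3 at 0.00403 ± 0.00698 and Col4a4 at 0.00896 ± 0.00804. Col4a1 exceeded Col1a1 34.4- to 51.0-fold within libraries. Col1a1, a chain of type I collagen, was at the filter, at 0.808, 0.938 and 1.18 FPKM in Control 2, 3 and 4 and at 1.12, 0.988 and 1.10 in SMF 1, 2 and 3.

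Col1a2, the partner chain of Col1a1 in type I collagen, had no read in any library. A count of 0 allows up to 3 reads, or 0.0133 to 0.0156 FPKM per library. Col3a1, of type III collagen, had 1 read in SMF 3 and none elsewhere. Col5a1, of type V collagen, was at 0.0141 to 0.0541 FPKM, and Col12a1, which decorates fibrils, at 2.34 to 2.62. Col6a1, of type VI collagen, was at 11.9 to 14.5 FPKM, while its partner chains from a list of other collagens were lower in controls, Col6a2 at 0.894 ± 0.173 and Col6a3 at 0.0181 ± 0.0193. Limits drawn from counts of 0 cover counting error only.

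The laminin chains formed a restricted set. Lama5 was at 63.3 to 68.0 FPKM, Lamb2 at 31.1 to 37.9 and Lamc1 at 25.3 to 28.1, which supplies an alpha, a beta and a gamma chain. Lamb1, the alternative beta chain, was near the filter at 0.937 to 1.25 FPKM, and Lamb2 exceeded it 25.7- to 39.7-fold within libraries. Lama3, the alpha chain of epidermal laminin, was at 0.0112 to 0.0383 FPKM. Lamb3, a beta chain known to pair with Lama3, was nevertheless present, at 71.0 ± 2.67 FPKM in controls. Of other basement membrane genes, Agrn (agrin) was at 90.3 ± 3.36 and Hspg2 (perlecan) at 17.8 ± 1.13 FPKM, while the laminin-binding Nid1 and Nid2 were at 0.114 ± 0.0286 and 0.00388 ± 0.00672, Lama2 was at 0.00231 ± 0.00201 and Lama4 was at 0 in every library.

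Of the other matrix proteins, Spp1 (osteopontin, a secreted ligand of integrins) ranked 29 among all genes by mean level. Its values were 917, 842 and 826 FPKM in Control 2, 3 and 4 and 844, 874 and 889 in SMF 1, 2 and 3. Sparc, a collagen-binding glycoprotein, was at 107 to 114 FPKM, Fn1 (fibronectin) at 27.2 to 32.8 and Thbs1 (thrombospondin, an activator of latent TGF-beta) at 19.6 to 25.0. Tgfbi, named for its induction by TGF-beta, had 5 reads over the 3 controls and none in SMF libraries, where 3 reads would be up to 0.0513 FPKM.

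The matrix proteases and their inhibitors were unevenly expressed. Timp2, an inhibitor of matrix metalloproteinases, was at 192 to 198 FPKM and exceeded Timp1 6.17- to 7.19-fold. Timp1, at 27.3 to 31.5 FPKM, lies within an intron of a gene on the other strand, whose reads cannot be told apart without strand information. Mmp14, a membrane-bound metalloproteinase, was at 45.4 to 48.3 FPKM. MMP14 and TIMP2 are known to act together in the activation of pro-MMP2, yet Mmp2 had no read in the controls or SMF 2 and 1 and 4 reads in SMF 1 and SMF 3. Timp3 had 1 read in Control 4 and none elsewhere.

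The bases before the start site are shown for 4 genes at the ends of this range of levels, to place the expressed and the silent genes side by side. The RefSeq promoter table (build GRCm38.p6) holds 30 windows for 23 of the genes, and the 4 are the 2 most and the 2 least abundant of those with only 1 start there. Each line gives the 250 bases before the start, 5′ to 3′ on the gene's strand, and capitals mark CAGAC or its complement GTCTG, which holds the short box contacted by SMAD3 and SMAD4. Timp2 is at chr11:118355412-118355661 (minus strand), Sparc at chr11:55420081-55420330 (minus), Col3a1 at chr1:45311288-45311537 (plus) and Col1a2 at chr6:4505368-4505617 (plus).
Timp2: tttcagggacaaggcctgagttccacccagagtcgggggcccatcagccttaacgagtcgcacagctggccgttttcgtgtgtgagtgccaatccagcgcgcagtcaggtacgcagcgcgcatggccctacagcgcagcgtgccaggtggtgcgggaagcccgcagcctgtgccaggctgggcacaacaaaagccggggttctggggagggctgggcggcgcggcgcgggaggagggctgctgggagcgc
Sparc: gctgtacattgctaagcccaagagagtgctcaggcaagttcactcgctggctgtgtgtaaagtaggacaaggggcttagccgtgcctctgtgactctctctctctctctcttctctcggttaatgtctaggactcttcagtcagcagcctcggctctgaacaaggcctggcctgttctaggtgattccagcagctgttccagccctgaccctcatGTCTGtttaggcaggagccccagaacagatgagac
Col3a1: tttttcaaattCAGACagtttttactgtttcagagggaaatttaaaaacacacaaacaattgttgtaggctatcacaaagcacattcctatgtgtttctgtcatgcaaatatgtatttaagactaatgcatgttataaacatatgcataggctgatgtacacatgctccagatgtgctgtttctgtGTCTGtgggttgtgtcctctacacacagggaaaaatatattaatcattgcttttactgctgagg
Col1a2: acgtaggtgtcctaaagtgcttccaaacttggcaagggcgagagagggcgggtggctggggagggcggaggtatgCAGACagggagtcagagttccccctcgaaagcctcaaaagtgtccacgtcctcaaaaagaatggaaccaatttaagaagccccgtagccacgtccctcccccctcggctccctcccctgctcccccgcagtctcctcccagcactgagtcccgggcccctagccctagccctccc
The abundant Timp2 held no CAGAC on either strand and Sparc held 1, while Col3a1 and Col1a2, at or near 0 in these cells, held 2 and 1. GC content was 68% for Timp2, 54% for Sparc, 35.2% for Col3a1 and 62% for Col1a2. Over both strands, 18 of the 30 windows held CAGAC, against 42.2% of all 32851 windows of this length in the table. GGGCGG, the core of GC boxes, was in 16 of 30 windows against 32.7%, and TATAAA in 3 of 30 against 12.4%. None of these motifs contains another, and a match is a description of these letters only. The table's 300-base windows of Col4a1 and Col4a2, on opposite strands of chromosome 8, overlapped by 78 bases, so these genes start head to head.

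The comparison of exposed with untreated cells asks whether the field altered these genes. None of the 28 expressed genes passed limma on log2(FPKM + 1) at an adjusted p of 0.05, against 0.00% of the 11114 genes tested. On simulated data this test recovered 10% of changes of 1.2-fold, so changes of that size could be missed. Differences were small, from -0.27 for Loxl2 to 0.16 for Tgfb1 on the log2(FPKM + 1) scale, where changes of weakly expressed genes come out too small. By limma-voom on reads recovered from the FPKM values, 1 gene was lower in SMF libraries, Loxl2, against 2.41% of all genes called lower, and none was higher, against 2.18% (4.59% in either direction). At an unadjusted p under 0.05 by limma, 4 of 28 were higher (Tgfb1, Lamb2, Smad7 and Col18a1) and 4 lower (Loxl2, Lamc1, Thbs1 and Smad4), where 9.41% and 8.57% of all genes were. Of the 28 genes, 12 had a fold above 0 (42.9%), against 46.7% of all genes, with a median of -0.05 against -0.01. Rescaling to TPM, with the filter applied to TPM, gave a median of -0.040 over 13131 genes, against -0.010 over the 11114. It left 9 of the 28 above 0. Quantile normalization left 7 above 0, with a median over all genes of -0.008.

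**Figure D2:**
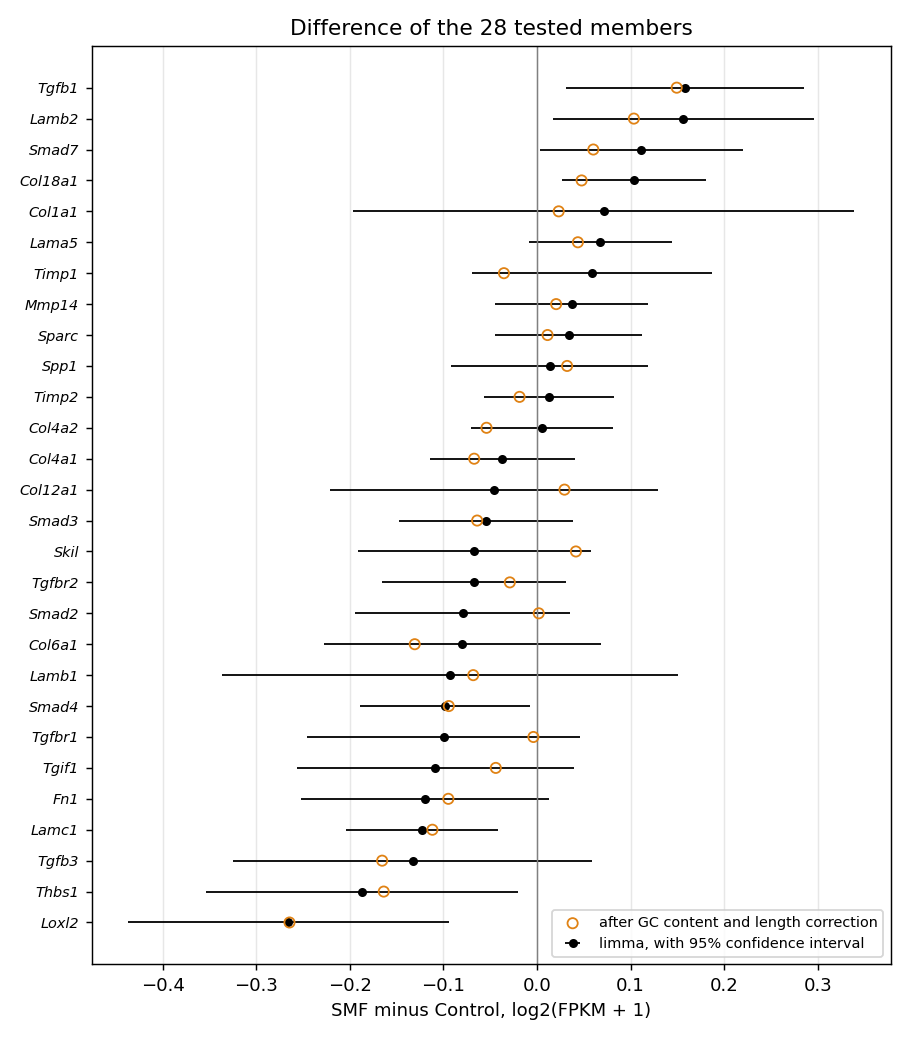
Difference between SMF and control libraries (SMF minus control, log2(FPKM + 1), n = 3 each) for the 28 tested genes, with limma's 95% confidence interval as bars and the value after correction for GC content and gene length as open circles. Loxl2 is the lowest at -0.27 and Tgfb1 the highest at 0.16, and no gene passed after adjustment over all genes.

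Of the 28 genes, 10 had groups that did not overlap: 4 with every SMF library higher and 6 with every SMF library lower. Over all genes tested the same held for 11.0% and 12.7%, or 23.7% in all. The 4 higher were Tgfb1, Smad7, Col18a1 and Lama5, and the 6 lower were Loxl2, Lamc1, Smad4, Smad2, Tgfbr2 and Col4a1.

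Loxl2 (ENSMUSG00000034205) encodes a lysyl oxidase that crosslinks collagen, including type IV collagen. Its level was 10.2, 9.00 and 9.89 FPKM in Control 2, 3 and 4, and 8.04, 7.12 and 8.59 in SMF 1, 2 and 3. Every SMF library lay below every control, and the means were 9.70 ± 0.637 and 7.92 ± 0.741 FPKM (SD, n = 3), a difference of -18.4%. The log2 fold was -0.27 ± 0.07 (SE) by limma, with an adjusted p of 0.171, and -0.29 ± 0.08 by limma-voom, with an adjusted p of 0.0279. The reads behind it numbered 918, 885 and 910 among controls, against 674, 665 and 834 under SMF. It was the gene least moved by correction for GC content and gene length among those at an unadjusted p under 0.05, at -0.26 (adjusted p = 0.269) by limma and -0.29 (adjusted p = 0.0463) by limma-voom. The limma-voom call was lost in 5 of 6 fits that left out 1 library. Its adjusted p was then 0.101 without Control 2, 0.157 without Control 4, 0.106 without SMF 1, 0.0578 without SMF 2 and 0.051 without SMF 3, and it was 0.0206 without Control 3.

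The level of 11 tested genes known to be induced by hypoxia also varied between libraries. Their median deviation from each gene's mean on the log2(FPKM + 1) scale was 0.196, -0.045 and -0.003 in Control 2, 3 and 4 and -0.061, -0.200 and 0.047 in SMF 1, 2 and 3. Loxl2 deviated by 0.204, 0.036 and 0.159 in the controls and by -0.110, -0.264 and -0.025 in the SMF libraries. Control 2 was the highest and SMF 2 the lowest for both, but the libraries between them fell in a different order. SMF 3 lay above Control 3 and Control 4 for the hypoxia genes and below both for Loxl2. The part of these genes' variation in the Loxl2 difference was not tested, and the list was chosen after the data were seen.

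**Figure D3:**
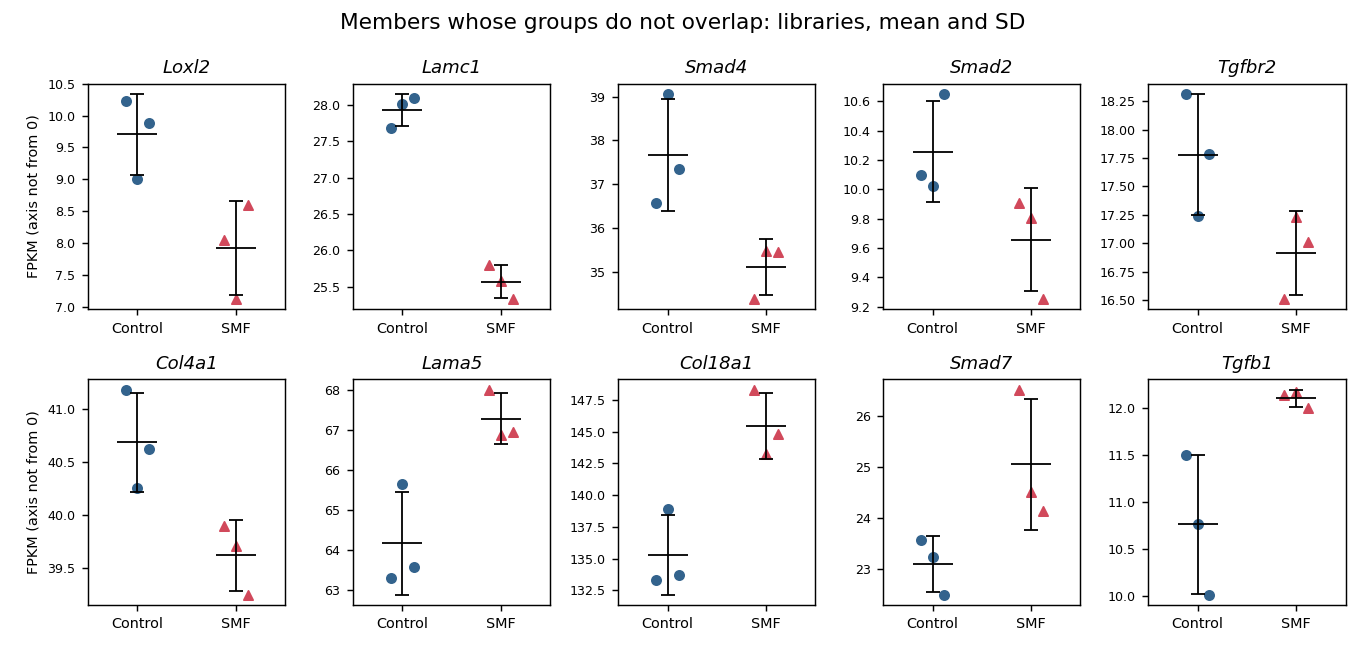
FPKM in each library of the 10 genes whose control (circles) and SMF (triangles) libraries do not overlap, with the mean and SD of 3 libraries as bars; the vertical axes do not start at 0. The nearest libraries of the groups are at 17.23 and 17.24 FPKM for Tgfbr2 and at 25.8 and 27.7 for Lamc1.

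In the signalling arm, the ligand Tgfb1 was 12.5% higher in SMF libraries, with means of 10.8 ± 0.745 FPKM (control) and 12.1 ± 0.096 (SMF). Its log2 fold was 0.16 ± 0.06, with an adjusted p of 0.215 by limma and 0.121 by limma-voom. The GC- and length-corrected fold was 0.15. Control libraries were more spread out than SMF libraries, which lay within a narrow range above them. Tgfb3 had a log2 fold of -0.13 ± 0.08, and its groups overlapped.

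The receptors had folds below 0, -0.10 ± 0.06 for Tgfbr1 and -0.07 ± 0.04 for Tgfbr2. Tgfbr1 was at 24.1, 22.8 and 24.7 FPKM in Control 2, 3 and 4, and at 21.5, 24.4 and 20.8 in SMF 1, 2 and 3, with SMF 2 within the control range. Tgfbr2 was at 18.3, 17.24 and 17.8 FPKM among controls, against 16.5, 17.23 and 17.01 among SMF libraries, so its groups did not overlap but nearly touched. Corrected for GC content and length, the folds were -0.0038 for Tgfbr1 and -0.029 for Tgfbr2.

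Smad4 was at 36.6, 39.1 and 37.4 FPKM among controls, against 34.4, 35.5 and 35.5 among SMF libraries. Every SMF library was lower, with a difference in means of -6.77% (log2 fold -0.10 ± 0.04, limma adjusted p = 0.251). Smad7, the feedback inhibitor, went the other way, at 23.6, 23.2 and 22.5 FPKM among controls, against 26.5, 24.5 and 24.1 under SMF. Its mean was 8.45% higher (log2 fold 0.11 ± 0.05, limma adjusted p = 0.268), and its corrected fold was 0.06.

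Smad2 was at 10.1, 10.02 and 10.65 FPKM among controls, against 9.91, 9.81 and 9.25 under SMF, with no overlap. Its log2 fold of -0.08 ± 0.05 was 0.0019 once corrected for GC content and length. Smad3 was at 27.5, 26.5 and 27.8 FPKM among controls, against 25.4, 26.6 and 26.6 under SMF (log2 fold -0.05 ± 0.04). Its groups overlapped through Control 3. Tgif1 was at 14.9, 15.02 and 15.25 FPKM among controls, a narrow range, and at 12.8, 13.7 and 15.4 under SMF, with SMF 3 above every control. Skil had a log2 fold of -0.07 ± 0.05, which turned to 0.04 with the correction.

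In the basement membrane, Lamc1 was at 27.7, 28.01 and 28.1 FPKM among controls, against 25.8, 25.6 and 25.3 under SMF. All SMF libraries were lower, by more than the spread within either group and with a difference in means of -8.45%, and with a log2 fold of -0.12 ± 0.04 (adjusted p = 0.172 by limma and 0.0725 by limma-voom). The corrected fold was -0.11 (limma adjusted p = 0.26).

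Of the chains that can share a trimer with Lamc1, Lama5 and Lamb2 had folds above 0 and Lamb1 below. Lama5 was at 63.3, 65.6 and 63.6 FPKM among controls, against 68.02, 66.9 and 66.96 under SMF (log2 fold 0.07 ± 0.03, limma adjusted p = 0.327). Lamb2 was at 31.95, 32.9 and 31.1 among controls, against 37.9, 32.4 and 37.2 under SMF, where SMF 2 lay within the control range (0.16 ± 0.06, limma adjusted p = 0.243; limma-voom adjusted p = 0.0665). Lamb1 was at 1.245, 0.9973 and 1.166 FPKM among controls, against 1.04, 1.027 and 0.9371 under SMF, which overlap (-0.09 ± 0.11).

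Set against each other within libraries, the ratio of Lama5 to Lamc1 was 2.29, 2.34 and 2.26 among controls, against 2.64, 2.61 and 2.64 under SMF. The ratio of Lamb2 to Lamc1 was 1.15, 1.17 and 1.11 among controls, against 1.47, 1.27 and 1.47 under SMF. In log2 units the differences were 0.20 and 0.29, and both groups stayed apart with the correction for GC content and length, at 0.16 and 0.22. The ratio of Col4a2 to Col4a1 was 1.02 to 1.04 in controls and 1.05 to 1.07 in SMF libraries, a difference of 0.04 that was 0.01 when corrected, with overlapping groups. For each of these 3 ratios the exact permutation p, over both tails, was 0.1, the smallest that 3 against 3 libraries can give, and 0.167 when adjusted over the 5 ratios computed. The other 2, Smad3 to Smad2 and Timp2 to Mmp14, gave exact permutation p of 0.7 and 0.2. The 5 ratios were chosen after the values were seen. Every SMF library was already higher for Lama5 and lower for Lamc1, so their ratio could not overlap between groups. The p for that ratio was thus fixed beforehand and adds nothing to the values of each gene.

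Col18a1 was at 133, 139 and 134 FPKM among controls, against 148, 143 and 145 under SMF. Every SMF library was higher, by 7.5% in the mean (log2 fold 0.10 ± 0.03), with an adjusted p of 0.202 by limma and 0.0746 by limma-voom. The fold was 0.05 with the correction for GC content and length. Col4a1 was at 41.2, 40.3 and 40.6 FPKM among controls, against 39.9, 39.7 and 39.3 under SMF, a log2 fold of -0.04 ± 0.03. Col4a2 was at 41.9, 41.9 and 42.1 and at 42.7, 41.7 and 42.1, with a fold of 0.01 ± 0.03 whose 95% confidence interval ran from -0.07 to 0.08.

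Of the collagens outside basement membranes, Col1a1, Col12a1 and Col6a1 had folds of 0.07 ± 0.12, -0.05 ± 0.08 and -0.08 ± 0.06. Col12a1 was at 2.44, 2.59 and 2.62 FPKM among controls, against 2.37, 2.62 and 2.34 under SMF. All 3 genes had overlapping groups. The interval for Col1a1, from -0.20 to 0.34, was the widest of the 28 genes, on 88 to 132 reads per library.

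Among other matrix proteins, Thbs1 was at 25.02, 22.5 and 25.04 FPKM among controls, against 20.4, 23.5 and 19.6 under SMF. SMF 2 lay within the control range. The difference in means was -12.5%, with a log2 fold of -0.19 ± 0.07 (adjusted p = 0.242 by limma and 0.0542 by limma-voom) and a corrected fold of -0.16. Fn1 was at 32.8, 30.1 and 28.2 FPKM among controls, against 28.8, 27.4 and 27.2 under SMF, with overlap between Control 4 and SMF 1 (log2 fold -0.12 ± 0.06, limma adjusted p = 0.317).

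Of the most abundant genes, Spp1 had a log2 fold of 0.01 ± 0.05 with an interval from -0.09 to 0.12, and Timp2 of 0.01 ± 0.03 with an interval from -0.06 to 0.08. Timp2 was at 192.2, 195.9 and 197.0 FPKM among controls, against 194.5, 197.9 and 197.8 under SMF, and these overlap. Sparc was at 111.8, 109.3 and 107.1 FPKM among controls, against 112.3, 109.7 and 114.1 under SMF, a fold of 0.03 ± 0.03. For the protease Mmp14 values were 45.4, 46.5 and 45.8 FPKM among controls, against 46.1, 48.3 and 46.95 under SMF. The protease inhibitor Timp1 was at 27.3, 27.7 and 29.3, against 31.5, 29.0 and 27.5. Both overlapped between groups. Mmp14 and Timp1 had folds of 0.04 ± 0.04 and 0.06 ± 0.06, and that of Timp1 turned to -0.04 with the correction.

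Differences across all genes moved with gene length and GC content. The median log2 fold was 0.07 among the shortest 2211 of the tested genes (up to 2137 bases of exon) and -0.07 among the longest 2210 (from 7355 bases). It was -0.09 among the 2211 with the lowest GC content and 0.07 among the 2211 with the highest. The 28 genes had a median exon length of 6078 bases and a median GC content of 52.9%, against 4199 bases and 49.7% over all genes tested. After a within-library correction for both properties, 5 of the 28 were at an unadjusted p under 0.05 in place of 8, where 12.7% of all genes were in place of 18.0%. Of these 5, Tgfb1 was higher, against 6.60% of all genes, and Loxl2, Lamc1, Smad4 and Thbs1 were lower, against 6.05%.

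**Figure D4:**
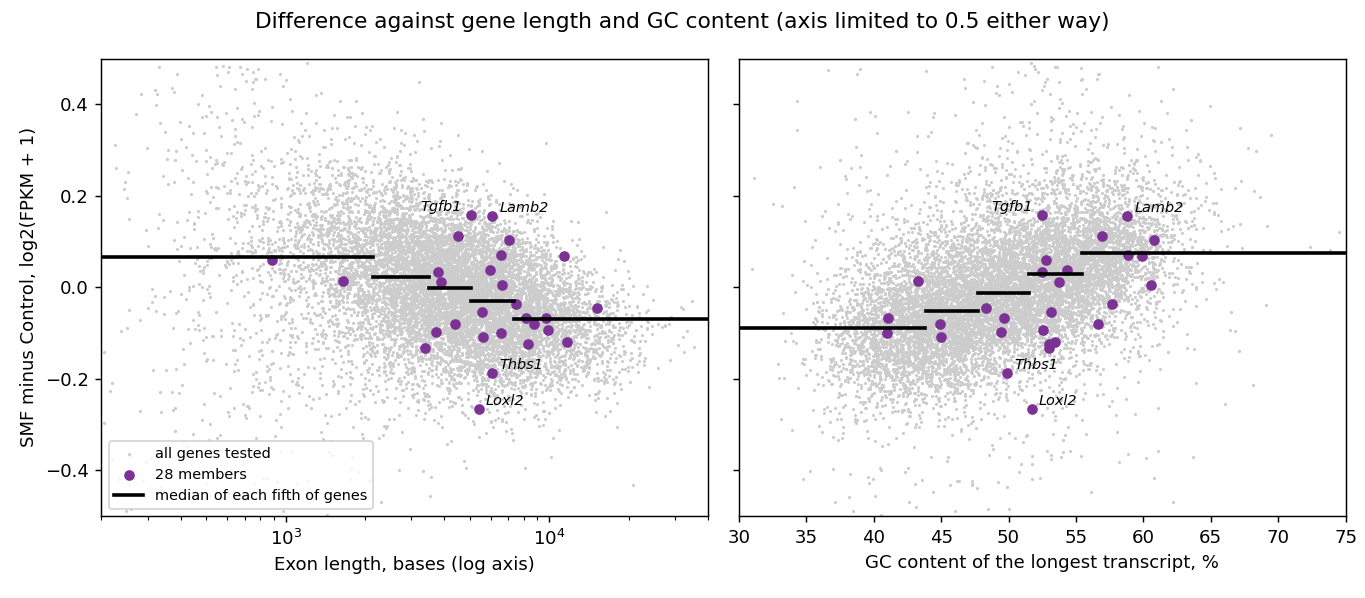
Difference between SMF and control libraries (log2(FPKM + 1), SMF minus control) against exon length (left, log axis) and GC content (right) for all genes tested (grey) and the 28 genes (purple), with the median of each of 5 equal bins of all genes as black lines. The medians go from 0.07 to -0.07 with length and from -0.09 to 0.07 with GC content; genes beyond 0.5 in either direction and outside the horizontal limits are not drawn.

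Other genes of the pathway and the matrix were taken from 12 further lists, 193 genes in the files, of which 112 were tested. None passed limma. At an unadjusted p under 0.05, 16 were higher and 10 lower, where 9.41% and 8.57% of all genes were. By limma-voom 6 were higher and 1 lower, against 2.18% and 2.41% of all genes. The 6 higher were Ltbp3, Bmp1, Junb, Igfbp7, Serpinh1 and Tgm2, and the 1 lower was Smurf2. The median log2 fold of all 112 tested genes was -0.02.

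Around the ligands, Ltbp3, which binds latent TGF-beta, averaged 79.8 ± 2.86 FPKM (control) and 89.5 ± 3.72 (SMF, SD, n = 3 each) (adjusted p = 0.164 by limma and 0.018 by limma-voom). Bmp1, a protease that trims procollagen, was at 22.4 ± 0.805 and 25.2 ± 0.425 FPKM (adjusted p = 0.164 and 0.0297). The groups of both did not overlap. Of 6 other receptors of the family tested, 5 had a fold below 0, where 46.7% of all genes had a fold above 0. Bmpr1a, Acvr2a and Acvr1 were lower in every SMF library, as 12.7% of all genes were. The differences were 0.19, 0.21 and 0.07 on the log2(FPKM + 1) scale, and 0.10, 0.11 and 0.05 with the correction for GC content and length. None of them passed limma (adjusted p = 0.251 for Bmpr1a and Acvr2a and 0.407 for Acvr1).

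Of 13 tested genes that TGF-beta is known to induce or repress early, 6 had a fold above 0 and 7 below, with a median of -0.01. Junb, part of the AP-1 transcription factor, averaged 165.5 ± 3.79 FPKM (control) and 182.6 ± 9.02 (SMF) (limma-voom adjusted p = 0.0481), with a corrected log2 fold of 0.02 in place of 0.14. Ccn2, a standard readout of TGF-beta signalling, was at 83.4 ± 3.07 and 80.1 ± 6.41, and Pmepa1, a feedback inhibitor, at 58.7 ± 1.32 and 62.3 ± 2.52.

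Of 15 tested genes of collagen synthesis and secretion, 8 had a fold above 0. Serpinh1, the collagen chaperone, averaged 156.7 ± 4.26 FPKM (control) and 175.7 ± 5.72 (SMF) (log2 fold 0.16, and 0.09 with the correction; adjusted p = 0.158 by limma and 0.02 by limma-voom). P4hb, the shared subunit of prolyl hydroxylase, was at 409.3 ± 11.1 and 404.5 ± 2.86. Tgm2, a crosslinking transglutaminase, was at 173.9 ± 6.49 and 191.2 ± 5.89 (limma-voom adjusted p = 0.0336), and its log2 fold of 0.14 was 0.08 with the correction. Igfbp7, a matrix-bound secreted protein, was at 977.1 ± 37.3 and 1111 ± 78.3 (limma-voom adjusted p = 0.0149), with a fold of 0.18 that was 0.05 with the correction. Smurf2, a ubiquitin ligase that targets the receptors, was at 11.8 ± 1.2 and 9.98 ± 0.28 (limma-voom adjusted p = 0.0498), with a fold of -0.21 that was -0.16 with the correction.

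The receptors for these matrix proteins were well represented, with 17 of 20 integrins and other matrix receptors tested. Itga3 and Itgb1, which pair into a laminin receptor, were the highest, with control means of 132.6 ± 1.55 and 129.8 ± 1.76 FPKM and SMF means of 141.0 ± 3.62 and 122.7 ± 3.88. Of the 17, 8 had a fold above 0 and 9 below. Of 12 other proteases and inhibitors tested, 8 had a fold below 0, and of 9 further glycoproteins and proteoglycans 4 did. Of 6 further collagens tested, the most abundant was Col27a1, with means of 6.53 ± 0.475 FPKM (control) and 6.72 ± 0.252 (SMF). Vim, a filament protein of mesenchymal and cultured cells, was at 625.3 ± 17.5 and 604.5 ± 22.7 FPKM. Of the epithelial genes on the same list, the cadherin Cdh1 was at 89.7 ± 2.97 and 89.5 ± 5.75, whereas Ocln was at 0.0964 ± 0.0169 and 0.0773 ± 0.0408, Cldn3 was at 0 in controls and 0.0147 ± 0.0255 in SMF libraries, and Epcam was as low. Acta2, a marker of activated stellate cells, was at 0.0173 ± 0.015 in controls and listed at 0 in SMF libraries.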

How the data were processed

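The deposited files give FPKM, calculated by the authors, 1 file per library. The submitters' processing notes name HISAT2 2.1.0, Bowtie2 2.2.3 and build GRCm39, with no role stated, and the sources used here do not give the counter or annotation. Per the labels' protocols, polyadenylated RNA was enriched and cDNA was random-primed, with no strand marking stated. Symbols, exon length and GC content (longest transcript) came from GENCODE M21, on GRCm38, which named 23521 of 23886 identifiers; promoter windows came from RefSeq.

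SMF was compared with control by limma 3.58.1 (R 4.3.3) over 11114 genes, on log2(FPKM + 1) and allowing a variance trend, two-sided, with Benjamini-Hochberg adjustment. FPKM values were whole multiples of 1 read: at the annotated exon length, within 0.02 reads or 2e-06 of the count, whichever was larger, for 96.9% of 22004 detected genes, and with a searched length for the other 681. These reads entered limma-voom. GC content and length were corrected within libraries by loess (span 0.3), for 99.47% of tested genes. Both tests were run on simulated data with 50 genes changed at each fold, where the spread between libraries was set and not taken from the data. Limma recovered 10% of changes of 1.2-fold and 84% of 1.5-fold, and limma-voom 46% and 86%. Both recovered 100% of changes of 2-fold. False calls were 11 of 158 by limma and 14 of 180 by limma-voom. Figures were drawn with matplotlib 3.10.9.

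The 38 genes and further lists were chosen with earlier results of these data known. Values by library are given for genes past a test, with groups that did not overlap, among the most abundant of their role, or near the filter. From further lists, values are given for genes called or the most abundant, and for a few named after their values were seen (Bmpr1a, Acvr2a, Acvr1, Ccn2, Pmepa1, Lamb3, Col11a2, Col2a1, Col5a3, Col6a2, Col6a3, Col4a3, Col4a4, Col4a6, Hspg2, Nid1, Nid2, Lama2, Lama4, Ocln, Cldn3, Epcam, Acta2).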

Additional observations from a re-analysis of the deposited data

How the results depend on the processing

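No gene of the 28 passed limma under any of these alternatives on log2 FPKM values: pseudocounts of 0.1 and 5, no filter or a filter at 5 FPKM, TPM, median-of-ratios or quantile scaling, no variance trend, correction for GC content and length, the replicate block, thresholds of 0.01 and 0.1, and each library left out. The count called lower went from 0 to 1 (Loxl2, log2 fold -0.293) by limma-voom. Over all genes limma-voom called 242 higher and 268 lower, and limma with the 5 FPKM filter 6 and 2. Limma with the replicate block, whose folds rest on replicates 2 and 3 of each group, called 13 and 6. No filter, the 5 FPKM filter and no variance trend cannot change the fold of a gene. The 5 FPKM filter tested 24 of the 28 genes, leaving out Col1a1, Col12a1, Lamb1 and Tgfb3. Of the 28 genes, 19 had the same direction in each of the 18 alternatives in which they were tested. Of the other 9, the log2 folds of Timp2, Spp1 and Col4a2 turned to -0.021, -0.020 and -0.028 under TPM. The median of all genes was then -0.040 over 13131 genes, against -0.010 over 11114 in the main fit. Under quantile normalization the log2 folds of Mmp14, Timp2, Sparc, Spp1 and Col4a2 were -0.008, -0.057, -0.005, -0.073 and -0.032, and 7 genes were above 0. With the correction for GC content and length, Timp1, Timp2, Smad2, Skil, Col4a2 and Col12a1 turned to -0.035, -0.019, 0.002, 0.042, -0.054 and 0.029. With each library left out, Spp1 ranged from -0.016 to 0.059 and Col4a2 from -0.003 to 0.013, and the cause was not tested.

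The median fold of -0.050 was -0.033 with a pseudocount of 5, -0.037 with no filter (35 genes), -0.088 under TPM, -0.064 under quantile normalization and -0.024 with the correction, and -0.059 to -0.033 with each library left out. Genes higher at an unadjusted p under 0.05 went from 4 to 1 under TPM, quantile normalization and the correction, to 2 with no variance trend, and to 0 to 4 with each library left out: 1 without Control 2, 0 without Control 4 and 2 without SMF 1. Those lower went from 4 to 2 with no variance trend and to 2 to 5 with each library left out, with 2 without SMF 1. No label says that a replicate number marks a shared culture, and the deviations of same-numbered libraries correlated at 0.0585 and 0.046, so the numbers were not taken to pair the samples. The replicate block compares libraries with the same number, so its folds rest on replicates 2 and 3 of each group. Control 4 and SMF 1 share no number with a library of the other group and add nothing to these folds. With the replicate block the median was -0.024, Col4a2 was -0.001, and 0 genes were higher and 1 lower at an unadjusted p under 0.05. With the block and the correction together the median was -0.014, those counts were 0 and 1, and Timp1, Skil, Col4a2 and Col12a1 were at -0.026, 0.031, -0.032 and 0.034. By limma-voom with the block, Loxl2 was at -0.287 (adjusted p = 0.126), and its limma-voom fold ranged from -0.358 to -0.216 with each library left out. Genes under 0.1 FPKM rest on a few reads, and differences between their groups were not detectable at this depth.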
